A study of Mus musculus with 13 samples.

Results

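The complement genes described here are 9 genes of the complement system, taken by name from the 49315 genes counted in every library: C1qa, C1qb, C1qc, C1ra, C4b, C4a, C3, Cfb and Serping1. The list was drawn up with earlier results of these data known. All 9 passed the filter on low counts that left 19360 genes for testing. RNA-Seq libraries were made from whole midbrain of 13 male mice, 8 to 12 weeks old, on a C57BL/6J background, each library from a different animal. Every mouse carried floxed Ripk3 alleles (Ripk3fl/fl) and received tamoxifen (60 mg/kg, 5 days). In Cre+ mice (Ripk3fl/fl Aldh1l1Cre+) the Aldh1l1 promoter drove a tamoxifen-inducible Cre recombinase that deletes Ripk3 in astrocytes, and Cre- mice (Ripk3fl/fl Aldh1l1Cre-) were littermates without it. Mice were given MPTP, a toxin of dopaminergic neurons, at 20 mg/kg once a day for 5 days, or saline, and tissue was taken 3 days later. Of the 4 groups, Cre+ MPTP held 4 mice, and Cre- MPTP, Cre- Saline and Cre+ Saline held 3 each. There was no group with unfloxed Ripk3 and none without tamoxifen.

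Complement is a cascade of soluble proteins that tags cells, debris and synapses for removal and recruits phagocytes. In the classical pathway the recognition molecule C1q, built of A, B and C chains, activates the proteases C1r and C1s, which cut C4 and C2 to form an enzyme that cuts C3. Factor B forms the matching enzyme of the alternative pathway, fragments of C3 mark surfaces for the receptor CR3, and the small fragments C3a and C5a act through C3ar1 and C5ar1. Serping1 encodes C1 inhibitor, the serpin that blocks C1r and C1s. In brain, C1q is made mainly by microglia, whereas astrocytes are a known source of C3 and C4 in inflammation.

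Counts assigned to genes ranged from 11489150 to 29397278 per library, and values are given as CPM, counts scaled by the library total and a TMM factor so that libraries of different depth can be compared, listed by replicate number within a group. Cre- MPTP replicate 1 stood apart, with the lowest total and 21101 detected genes against 25432 to 27186 in the others, and genes with over 8000 exonic bases lay a median of 0.67 (log2) below their level across libraries in it. All members are shorter, at 1040 to 6206 exonic bases. In that library the median deviation was 0.14 for genes of 1000 to 2000 bases (as the C1q chains). It was 0.08 at 2000 to 4000 (C1ra, Cfb and Serping1) and -0.17 at 4000 to 8000 (C3, C4a and C4b). The number in the header of each count file began with 5 in 7 libraries and with 6 in 6, and what that number stands for is not given in the sources used here. The 5 numbers were Cre- Saline 1, Cre+ Saline 1, Cre- MPTP 1 and 3, and Cre+ MPTP 1, 3 and 4. The counts of Ripk3 itself (4 to 40 per library) were too few to check the genotypes. Astrocyte and dopaminergic neuron markers were detected in every library (summed levels of 2751 to 4561 and 358 to 619 CPM), and Alb, Fgb and Serpina1a of the 7 hepatocyte markers had at most 3 counts anywhere. Monocyte and neutrophil markers moved with MPTP in Cre- mice: of 10 listed, 6 passed the count filter and 4 of these rose (Ly6c2, S100a8, S100a9 and Retnlg), and the summed level was 10.2 to 59.6 CPM against 0.675 to 4.95 CPM in the other groups. Over all tested genes, 2.23% were called higher in that comparison. No marker of that list was at 0 in all libraries, and the part of these cells in the complement levels was not tested. In whole tissue, more cells of a type and more RNA per cell cannot be told apart.

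The members lie in 5 places of the GRCm38 genome, and their sequences bear on how the counts can be read. C1qa (ENSMUSG00000036887, chr4:136895917-136898803), C1qc (ENSMUSG00000036896, chr4:136889804-136893065) and C1qb (ENSMUSG00000036905, chr4:136880129-136886187) form a cluster of 18.7 kb. C4b (ENSMUSG00000073418, chr17:34728380-34743882), C4a (ENSMUSG00000015451, chr17:34809092-34823464) and Cfb (ENSMUSG00000090231, chr17:34856374-34862518) lie within 134 kb, and C3 (ENSMUSG00000024164, chr17:57203970-57228136) lies elsewhere on that chromosome. C1ra (ENSMUSG00000055172, chr6:124512405-124523443) and Serping1 (ENSMUSG00000023224, chr2:84765387-84775444) stand alone, and all members but C1ra are on the minus strand. RefSeq promoter windows (GRCm38.p6, 250 bases before to 50 after the start) were at hand for 4 members (C1qb, C1qc, C1ra and C3). The letters before the first annotated exon are shown for C1qb, C1qc and C3. C1ra, with 34 such letters, is left out. C1qb and C1qc are shown because these chains were high in the same libraries, and C3 because it was among the members with the largest response. Capitals mark matches to any of 5 motifs, searched on both strands: NF-kappaB (GGGA, 4 bases of any kind, then CC), STAT (TTC, 3 of any kind, GAA), an interferon response motif (TTTC, 2 of any kind, TTTC), C/EBP (TTGC, 2 of any kind, AA) and PU.1 (GAGGAAGT).
C1qb, chr4:136886201-136886450, minus strand: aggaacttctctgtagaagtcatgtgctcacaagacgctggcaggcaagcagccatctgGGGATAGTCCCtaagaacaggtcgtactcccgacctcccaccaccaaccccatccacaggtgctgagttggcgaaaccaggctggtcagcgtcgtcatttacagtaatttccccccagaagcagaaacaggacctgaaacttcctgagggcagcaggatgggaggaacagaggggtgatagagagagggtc
C1qc, chr4:136893066-136893164, minus strand: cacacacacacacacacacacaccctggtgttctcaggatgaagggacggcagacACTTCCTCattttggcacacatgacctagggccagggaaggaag
C3, chr17:57228137-57228386, minus strand: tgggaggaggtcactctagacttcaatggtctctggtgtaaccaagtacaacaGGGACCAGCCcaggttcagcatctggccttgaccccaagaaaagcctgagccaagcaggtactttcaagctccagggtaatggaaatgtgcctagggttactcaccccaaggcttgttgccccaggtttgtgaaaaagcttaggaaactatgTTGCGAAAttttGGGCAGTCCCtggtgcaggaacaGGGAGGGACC
The C3 window held 3 matches to the NF-kappaB letters, at 197, 33 and 10 bases before the start, and 1 to the C/EBP letters at 45. The C1qb window held 2 overlapping matches to the NF-kappaB letters, 1 on each strand. The C1qc window held a PU.1 match 195 bases before the start and an NF-kappaB match at 40, the latter outside the letters shown. The C1ra window held 1 STAT and 1 C/EBP match, both after the start. Of 32851 promoter windows, 20.7% held the NF-kappaB letters, 10.8% C/EBP, 8.3% STAT, 3.44% the interferon response motif and 3.2% PU.1, so a single match is a description of the sequence and no more.

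C4a and C4b are near-identical copies. Over 5367 aligned bases, the C4b-201 and C4a-207 transcripts of GENCODE M21 were 96.1% identical, and 8.26% of all 150-base windows of C4b-201 were found whole in C4a-207. A read pair that lies wholly in shared sequence cannot be given to one gene. The stretch with the most differences inside 1 coding exon (exon 21 of 41 in C4b) is shown to illustrate what tells the copies apart, with the 14 differing bases of 90 in capitals.
C4b, chr17:34735430-34735519, minus strand: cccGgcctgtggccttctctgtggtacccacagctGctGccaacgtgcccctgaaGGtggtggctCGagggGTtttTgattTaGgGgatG
C4a, aligned stretch of C4a-207: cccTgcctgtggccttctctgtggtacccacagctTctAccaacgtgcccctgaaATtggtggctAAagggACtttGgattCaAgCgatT
C1ra also has a close copy, C1rb (98% identical over 2429 aligned bases), in which 26.3% of the 150-base windows of C1ra-201 were found whole. C1rb had at most 2 counts in any library, and how many read pairs of C1ra were left out of the unique counts for that likeness is not known. Cfb shares its place and strand with Gm20547 and Mir6972, and C3 with Mir6978, so reads in the shared parts could be lost or split.

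With MPTP, 5 of the 9 members rose in Cre- mice: C1ra, C3, C4b, Cfb and Serping1, by 2.81-fold (Serping1) to 16.6-fold (C1ra). Of all tested genes, 2.23% were called higher in that comparison. None of the 9 was called lower, against 0.956% of all genes. The median log2 fold change of the members was 1.49 against 0.03 over all genes, and the Cre- MPTP libraries lay above every Cre- Saline library for 6 members, against 7.11% of all genes. In Cre+ mice none of the 9 was called by edgeR's quasi-likelihood test, where 0% of all genes were called. Of the 9, 5 had an unadjusted p under 0.05, against 3.47% of all genes. DESeq2 called 2 (C1ra and C4b) and 0.429% of all genes, and limma voom 3 (those and C1qb) and 1.52% of all genes. The median log2 fold change in Cre+ mice was 0.82, and 3 members (C1ra, C4b and Cfb) did not overlap between the groups, against 5.06% of all genes.

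**Figure D1:**
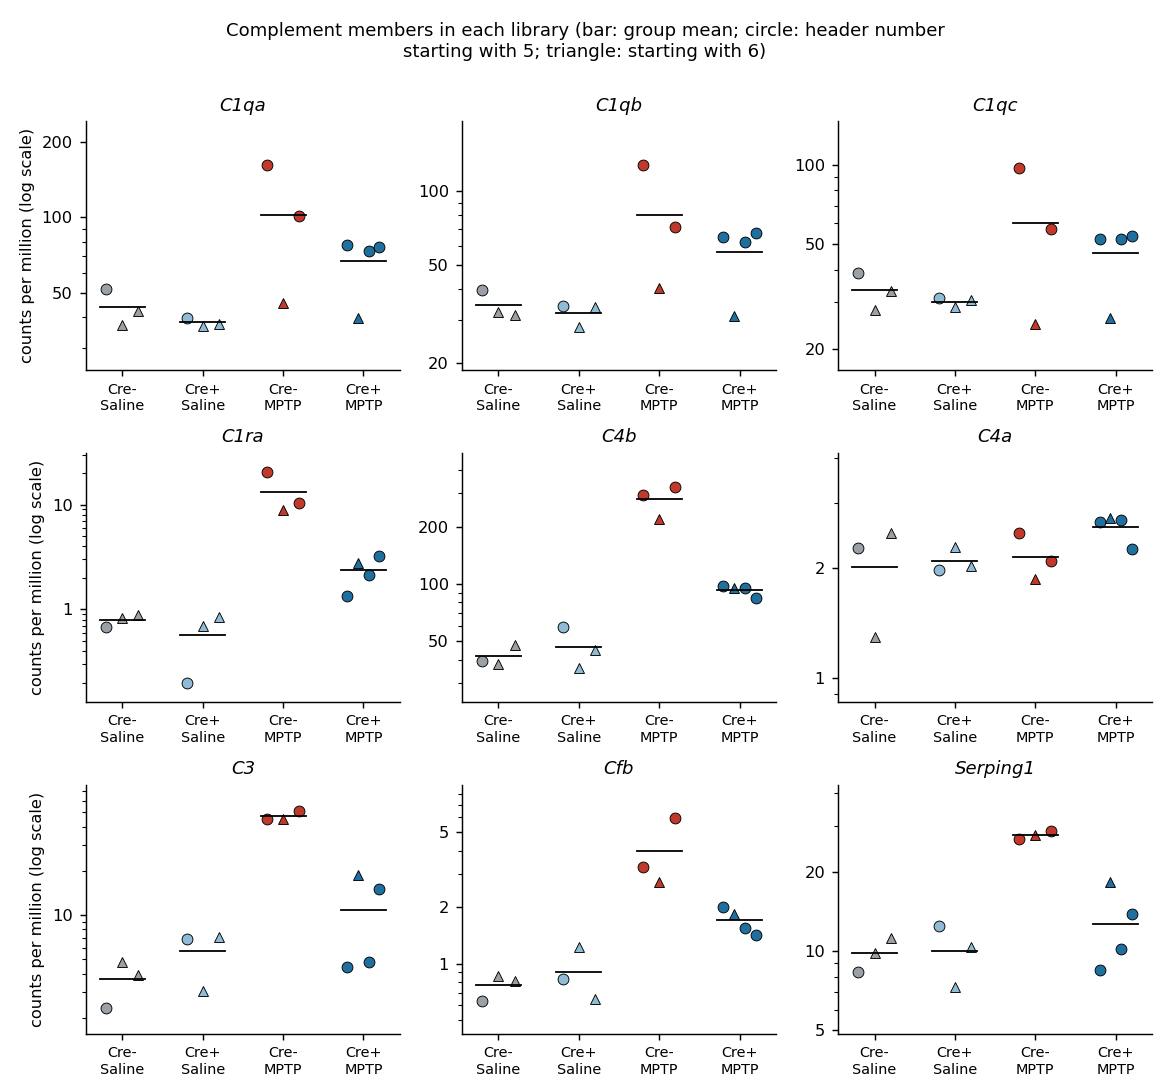
CPM on a log axis of the 9 members in each of the 13 libraries, by group, with the group mean as a bar and the symbol showing whether the header number began with 5 (circle) or 6 (triangle). The 3 Cre- MPTP libraries stood above all others for C1ra, C3, C4b, Cfb and Serping1, whereas for the C1q chains the MPTP libraries with a 6 number lay at or near the saline level.

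Under MPTP, Cre+ mice had lower levels of 4 members than Cre- mice, C1ra, C3, C4b and Serping1, by 2.18-fold (Serping1) to 5.56-fold (C1ra). Of all genes, 1.03% were called lower. Cfb also did not overlap between genotypes, so that 5 members were lower without overlap, against 5.07% of all genes. The median log2 fold change was -1.12, against 0.03 over all genes. This comparison and the one of MPTP against Saline in Cre- mice both rest on the same 3 Cre- MPTP libraries. C1ra, C3, C4b, Cfb and Serping1 did not overlap between genotypes, so the same order within each set of header numbers was given. Under MPTP the 6 numbers held 1 library of each genotype. With the header number as a term 2 members (C1ra and C4b) were called between genotypes. That fit called 1.46% of all genes, against 1.54% without the term. Fitted on the 7 MPTP libraries alone, edgeR called none of the 9 and 0% of all genes between genotypes, and the same held with the replicate number as a block. Without single libraries the count was 5 (Cre- MPTP replicate 1), 6 (Cre- MPTP replicate 2), 2 (Cre- MPTP replicate 3), and 1, 4, 1 and 2 (Cre+ MPTP replicates 1 to 4). In the same order, those fits called 3.18, 9.51 and 2.94%, and 0.218, 1.54, 0.212 and 0.563% of all genes. Under saline none of the 9 members was called, as for 0% of all genes, with no member at an unadjusted p under 0.05 and none called by DESeq2 or limma voom.

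**Figure D2:**
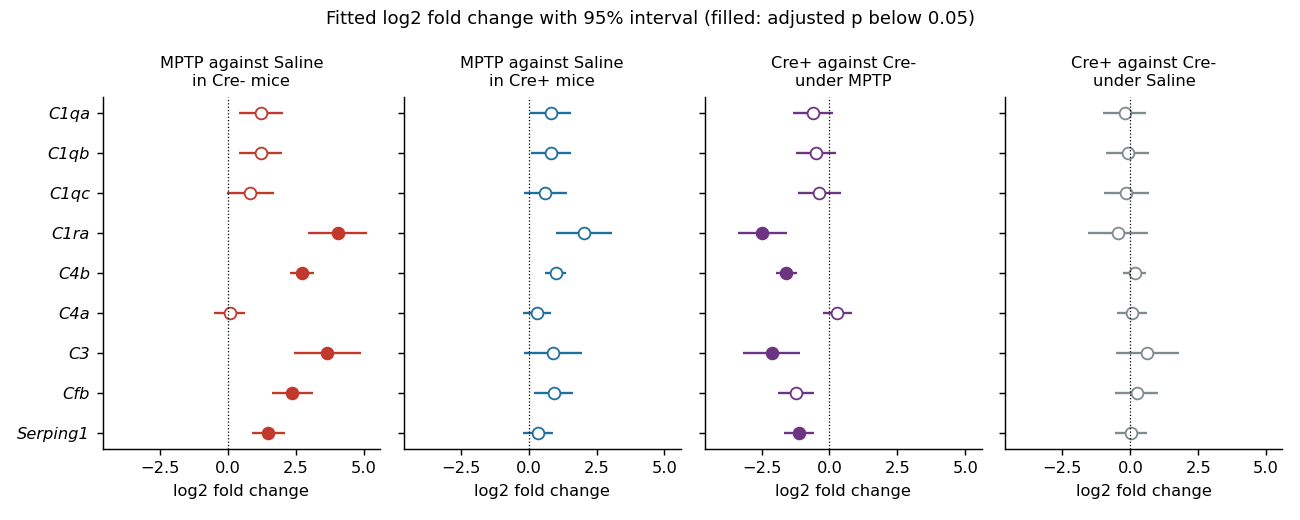
Fitted log2 fold change (x axis) of each member with its 95% interval in the 4 comparisons, filled where the adjusted p was under 0.05. Filled points are C1ra, C4b, C3, Cfb and Serping1 for MPTP in Cre- mice, and C1ra, C4b, C3 and Serping1 for genotype under MPTP. The other 2 panels have open points only.

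Among the recognition chains, C1qa, C1qb and C1qc were not called by edgeR on all libraries in any comparison, and their levels under MPTP split the libraries within each genotype. C1qa, the A chain, stood at 51.9, 37.1 and 42.4 CPM in Cre- Saline, 39.6, 36.9 and 37.5 in Cre+ Saline, 161, 45.4 and 101 in Cre- MPTP, and 77.6, 39.5, 73.3 and 76.3 in Cre+ MPTP. C1qb, the B chain, stood at 39.4, 32.2 and 31.2 CPM in Cre- Saline, 34.1, 28.1 and 33.8 in Cre+ Saline, 129, 40.5 and 71.3 in Cre- MPTP, and 65.0, 31.2, 62.4 and 67.7 in Cre+ MPTP. C1qc, the C chain, stood at 38.9, 28.1 and 33.2 CPM in Cre- Saline, 31.1, 28.7 and 30.7 in Cre+ Saline, 97.6, 24.9 and 57.0 in Cre- MPTP, and 52.4, 26.2, 52.1 and 53.8 in Cre+ MPTP. In both genotypes replicate 2 under MPTP was within the saline range for C1qa and below it for C1qc, and every other MPTP library was above all saline libraries for all 3 chains. The log2 fold change of MPTP in Cre- mice was 1.22 for C1qa (SE 0.370, adjusted p = 0.121), 1.22 for C1qb (SE 0.365, adjusted p = 0.118) and 0.84 for C1qc (SE 0.391, adjusted p = 0.338). DESeq2 on all libraries called C1qa (adjusted p = 0.0266) and C1qb (adjusted p = 0.0246) there, as did limma voom (adjusted p = 0.0219 and 0.0256), and neither called C1qc. In Cre+ mice it was 0.81, 0.82 and 0.61, each with an adjusted p of 1.00 by edgeR, while limma voom called C1qb (adjusted p = 0.0445). The difference between genotypes under MPTP was -0.62, -0.50 and -0.37, with adjusted p of 0.335 to 0.555.

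The split of the C1q levels followed the header number. The 5 MPTP libraries with a 5 number had 73.3 to 161 CPM of C1qa, and the 2 with a 6 number had 39.5 and 45.4, beside 36.9 to 51.9 in the 6 saline libraries. Among the libraries with a 5 number, C1qa was higher in Cre- MPTP (161 and 101) than in Cre+ MPTP (73.3 to 77.6), and among those with a 6 number it was 45.4 in the Cre- library and 39.5 in the Cre+ library. With the number as a term in the fit, the log2 fold change of MPTP in Cre- mice was 0.87 for C1qa, 0.89 for C1qb and 0.46 for C1qc, and in Cre+ mice it was 0.43, 0.45 and 0.21. Without Cre- MPTP replicate 2 the value in Cre- mice was 1.57 (adjusted p = 0.00821), 1.53 (adjusted p = 0.0168) and 1.19 (adjusted p = 0.0459), all past the threshold, and without Cre- MPTP replicate 1 it was 0.75, 0.71 and 0.30. Comparing genotypes under MPTP, C1qa was called without Cre- MPTP replicate 2 (-0.96, adjusted p = 0.0428), and the values of C1qb and C1qc were 0.01 and 0.17 without Cre- MPTP replicate 1. The part of the header number in these levels was not tested.

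The summed level of the 3 chains ran from 93.6 to 387 CPM, and their proportions varied less. Per kilobase of exon, C1qa was 1.16 to 1.48 times C1qb over the 13 libraries, with overlapping groups. C1qa was 2.27 to 2.48 times C1qc per kilobase in the 6 saline libraries, 2.61 to 2.79 times in Cre+ MPTP and 3.06 to 3.38 times in Cre- MPTP. These ranges did not overlap, and each held libraries of both header numbers. Markers of the cells that make C1q are given beside these levels. Of the 12 microglial markers, 5 fell with MPTP in Cre- mice (P2ry12, Siglech, Fcrls, Gpr34 and Trem2) and none rose, and the summed level was 226 to 317 CPM in Cre- MPTP against 317 to 383 in Cre- Saline, 313 to 343 in Cre+ Saline and 311 to 427 in Cre+ MPTP. Of all tested genes, 0.956% were called lower there and 2.23% higher. In Cre+ mice 0 of the 12 were called lower with MPTP, and under MPTP 5 were called higher in Cre+ than in Cre- mice. P2ry12, a purinergic receptor of resting microglia, was at 2.49 to 3.57 CPM in Cre- MPTP and at 18.5 to 26.0 in Cre- Saline, and Csf1r, the receptor that microglia need to survive, was at 53.1 to 66.4 and 57.5 to 73.8. Of the 7 border macrophage markers, Mrc1 fell in Cre- mice and none rose, with a summed level of 9.21 to 26.3 CPM in Cre- MPTP and 16.1 to 17.9 in Cre- Saline. No marker of either list was at 0 in all libraries. The part of these cells in the C1q levels was not tested.

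**Figure D3:**
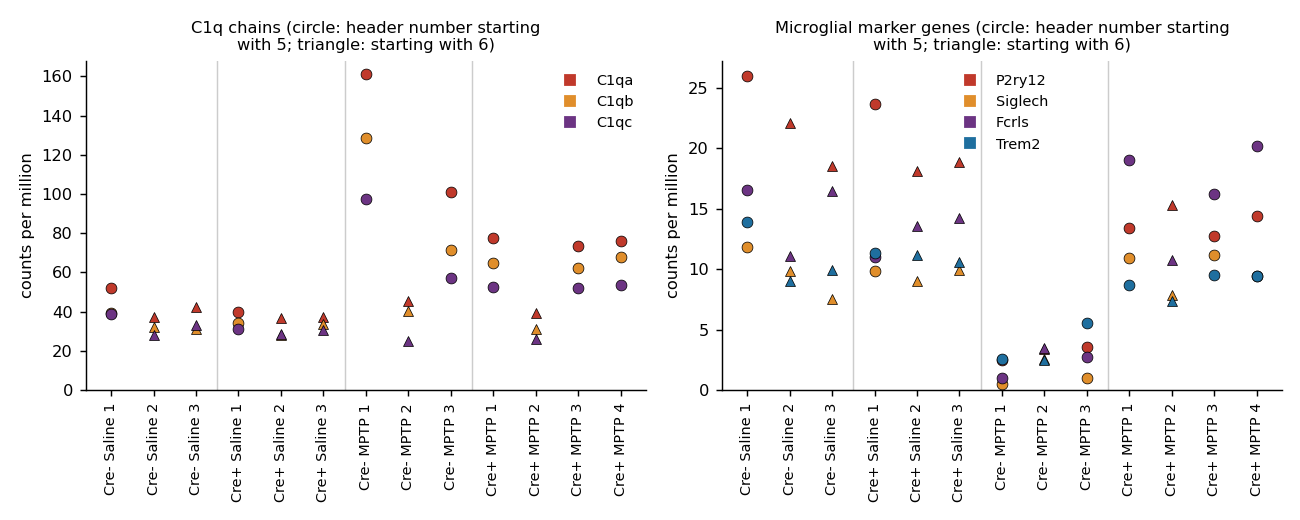
CPM of the C1q chains (left) and of 4 microglial marker genes (right) in each library on the x axis, with circles for header numbers that began with 5 and triangles for those that began with 6. The C1q chains were high in MPTP libraries with a 5 number in both genotypes, while the 4 marker genes were low in all 3 Cre- MPTP libraries.

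C1ra, which encodes the protease C1r, had the largest fold change of the members in both genotypes. It stood at 0.675, 0.820 and 0.876 CPM in Cre- Saline, 0.197, 0.692 and 0.838 in Cre+ Saline, 20.6, 8.95 and 10.3 in Cre- MPTP, and 1.33, 2.80, 2.13 and 3.24 in Cre+ MPTP. The 3 Cre- MPTP libraries lay above the 4 Cre+ MPTP libraries, which in turn lay above all 6 saline libraries. The log2 fold change of MPTP was 4.05 in Cre- mice (SE 0.503, 95% interval 2.96 to 5.14, adjusted p = 0.00129) and 2.03 in Cre+ mice (SE 0.474, adjusted p = 0.387). The genotype difference under MPTP was -2.47 (SE 0.417, adjusted p = 0.0153), and under saline -0.45 (SE 0.509, adjusted p = 1). The saline values rest on 5 to 24 counts per library. The genotype call was kept in 5 of 7 fits that each left out 1 library and failed without Cre+ MPTP replicate 1 or replicate 3, on the MPTP libraries alone and with the replicate block.

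C4b, the mouse C4 whose fragments coat surfaces, rose 6.71-fold with MPTP in Cre- mice. It stood at 39.5, 37.7 and 47.7 CPM in Cre- Saline, 59.6, 36.0 and 44.8 in Cre+ Saline, 294, 220.0 and 325 in Cre- MPTP, and 97.8, 94.7, 95.1 and 84.6 in Cre+ MPTP. The order was Cre- MPTP, then Cre+ MPTP, then both saline groups, which overlapped. The log2 fold change of MPTP in Cre- mice was 2.75 (SE 0.206, adjusted p = 0.000104), equal to the smallest adjusted p of any gene in that comparison. The value in Cre+ mice was 0.99 (SE 0.186, adjusted p = 0.247), and there DESeq2 (adjusted p = 0.000663) and limma voom (adjusted p = 0.00184) called it. Cre+ MPTP differed from Cre- MPTP by -1.59 (SE 0.180, adjusted p = 0.00557), and the call was kept in all 7 fits that left out 1 library of the comparison. It was lost by edgeR on the MPTP libraries alone (adjusted p = 0.185) and with the replicate block (adjusted p = 0.0673), 2 of 11 other fits. Among the 5 numbers, the Cre- MPTP libraries were at 294 and 325 and the Cre+ MPTP libraries at 84.6 to 97.8. Among the 6 numbers they were at 220.0 and 94.7. The 2 groups did not overlap, so this order within each set was given.

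C4a, the copy of C4b, did not follow it. It stood at 2.26, 1.29 and 2.48 CPM in Cre- Saline, 1.97, 2.28 and 2.02 in Cre+ Saline, 2.49, 1.86 and 2.08 in Cre- MPTP, and 2.66, 2.74, 2.71 and 2.25 in Cre+ MPTP. All groups overlapped in the 2 MPTP comparisons, and the log2 fold change was 0.08 in Cre- mice (SE 0.264, 95% interval -0.49 to 0.65, adjusted p = 0.907) and 0.31 in Cre+ mice (SE 0.243, adjusted p = 1.00). C4a took 3.31 to 5.41% of the counts of both copies in Cre- Saline, 3.20 to 5.96% in Cre+ Saline, 2.59 to 2.81% in Cre+ MPTP and 0.637 to 0.842% in Cre- MPTP. With the counts of both copies summed before the fit, the log2 fold changes of C4b became 2.68 for MPTP in Cre- mice and -1.55 between genotypes under MPTP, both still called.

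C3, the component on which all complement pathways converge, rose in Cre- mice and varied among Cre+ mice. It stood at 2.34, 4.80 and 3.94 CPM in Cre- Saline, 6.94, 3.05 and 7.16 in Cre+ Saline, 45.0, 44.9 and 51.1 in Cre- MPTP, and 4.43, 18.8, 4.84 and 15.0 in Cre+ MPTP. In Cre+ MPTP replicates 1 and 3 were within the saline range, and replicates 2 and 4 lay between it and the Cre- MPTP libraries, replicate 2 being the one with the lowest C1q chains of its group. The log2 fold change of MPTP was 3.67 in Cre- mice (SE 0.567, adjusted p = 0.00338), or 12.7-fold, and 0.91 in Cre+ mice (SE 0.494, adjusted p = 1.00). The value in Cre+ mice ran from 0.50 (without Cre+ MPTP replicate 2) to 1.16 when 1 library was left out and was 0.27 with limma voom. For genotype under MPTP it was -2.13 (SE 0.479, adjusted p = 0.0484), close to the threshold, and it was called in 3 of 7 fits that left out 1 library. Leaving out any of Cre- MPTP replicate 3 and Cre+ MPTP replicates 1, 3 and 4 ended the call, with adjusted p up to 0.135, and with the header number as a term the adjusted p was 0.05001.

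Cfb, which encodes factor B of the alternative pathway, rose in Cre- mice from a low level. It stood at 0.635, 0.859 and 0.803 CPM in Cre- Saline, 0.828, 1.22 and 0.647 in Cre+ Saline, 3.25, 2.73 and 5.94 in Cre- MPTP, and 2.00, 1.85, 1.55 and 1.41 in Cre+ MPTP. The Cre+ MPTP libraries lay above all saline libraries and below all Cre- MPTP libraries. The log2 fold change of MPTP was 2.38 in Cre- mice (SE 0.353, adjusted p = 0.0027) and 0.92 in Cre+ mice (SE 0.329, adjusted p = 1.00). The call in Cre- mice was lost when edgeR was fitted on the Cre- libraries alone (adjusted p = 0.0762), 1 of 10 other fits. Between genotypes under MPTP it was -1.23 (SE 0.308, adjusted p = 0.0804), not called, whereas DESeq2 (adjusted p = 0.00657) and limma voom (adjusted p = 0.00578) called it. Left out in turn, 2 of 7 libraries brought a call, Cre- MPTP replicate 1 (-1.36) and replicate 2 (-1.46). Without Cre- MPTP replicate 3 the difference was -0.80, and adjusted p ran up to 0.226 over the 7 fits.

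Serping1, the inhibitor of C1r and C1s, was the soluble regulator among the members. It stood at 8.33, 9.88 and 11.3 CPM in Cre- Saline, 12.5, 7.28 and 10.4 in Cre+ Saline, 26.7, 27.8 and 28.6 in Cre- MPTP, and 8.50, 18.4, 10.2 and 13.9 in Cre+ MPTP. The 3 Cre- MPTP libraries lay close together and above all others, while Cre+ MPTP replicates 1 and 3 were within the saline range. The log2 fold change of MPTP was 1.49 in Cre- mice (SE 0.277, adjusted p = 0.00945) and 0.34 in Cre+ mice (SE 0.257, adjusted p = 1.00), the latter from 0.11 (without Cre+ MPTP replicate 2) to 0.51 when 1 library was left out. Between genotypes under MPTP it was -1.12 (SE 0.252, adjusted p = 0.0473), called in 3 of 7 fits that left out 1 library and ended by leaving out any of the same 4 libraries as for C3. The MPTP call in Cre- mice failed without Cre- Saline replicate 1 or 2, with adjusted p up to 0.0589. Meningeal and perivascular fibroblasts can hold C1 inhibitor, C1r and C3 transcripts too: of their 9 markers, Dcn rose and Igf2 fell with MPTP in Cre- mice, and the summed level was 264 to 282 CPM in Cre- MPTP, 273 to 338 in Cre- Saline, 266 to 376 in Cre+ Saline and 200 to 316 in Cre+ MPTP. The summed astrocyte markers were at 2751 to 4561 CPM in Cre- MPTP and at 3736 to 4339 in Cre- Saline, and 1 of 9 (Aldh1l1) rose, against 2.23% of all genes. Their part in the levels of C1ra, C3, C4b and Serping1 was not tested in these data. By qRT-PCR on cells sorted after MPTP, the paper reported lower Serping1 in Cre+ than in Cre- astrocytes, but not in microglia.

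Whether the response to MPTP itself differed by genotype was tested as the interaction of genotype and treatment, in which edgeR called 0.0103% of all genes. None of the 9 members was among them, although 5 had an unadjusted p under 0.05, against 5.76% of all genes. The interaction was -1.75 for C4b (SE 0.265, 95% interval -2.33 to -1.18, adjusted p = 0.108), -2.76 for C3 (SE 0.715, adjusted p = 0.269), -2.02 for C1ra (SE 0.660, adjusted p = 0.519), -1.46 for Cfb (SE 0.473, adjusted p = 0.506) and -1.15 for Serping1 (SE 0.372, adjusted p = 0.502). For the C1q chains it was -0.22 to -0.41, and for C4a 0.23. DESeq2 called 2 members (C4b and C3) and 1.15% of all genes, and limma voom 3 (those and Serping1) and 3.56% of all genes. C4b was also called without Cre- MPTP replicate 1 (adjusted p = 0.0125), without Cre- MPTP replicate 2 (adjusted p = 0.0334) and without Cre+ MPTP replicate 2 (adjusted p = 0.0316).

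Beyond the members, a list of 49 other complement genes was followed, of which 31 passed the count filter. In Cre- mice MPTP raised 4 of the 31 and lowered 1, against 2.23% of all genes called higher and 0.956% called lower, and the median log2 fold change was -0.02, against 0.03 over all genes. All 4 that rose were receptors, out of 7 receptors tested. C5ar1, the receptor of C5a, stood at 0.873, 0.156 and 0.657 CPM in Cre- Saline, 0.710, 0.285 and 0.419 in Cre+ Saline, 2.82, 4.79 and 9.11 in Cre- MPTP, and 2.37, 2.46, 1.20 and 2.59 in Cre+ MPTP (log2 fold change in Cre- mice 3.32, SE 0.589, adjusted p = 0.00718). C3ar1, the receptor of C3a, stood at 1.79, 1.84 and 1.13 CPM in Cre- Saline, 1.89, 1.75 and 1.22 in Cre+ Saline, 3.79, 7.76 and 9.44 in Cre- MPTP, and 3.55, 3.52, 2.62 and 3.78 in Cre+ MPTP (2.16, SE 0.340, adjusted p = 0.00374). For both receptors every MPTP library of either genotype lay above every saline library. Itgam and Itgb2, the subunits of CR3, rose by 1.36 (SE 0.246, adjusted p = 0.00829) and 1.60 (SE 0.306, adjusted p = 0.0112) on the log2 scale. All 4 receptors are also made by the monocytes and neutrophils whose markers rose in the Cre- MPTP libraries, and the part of these cells was not tested.

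The gene that fell was Vtn, which encodes vitronectin, a soluble inhibitor of the terminal complex. It stood at 119, 117 and 133 CPM in Cre- Saline, 109, 95.7 and 108 in Cre+ Saline, 39.8, 72.0 and 68.9 in Cre- MPTP, and 85.1, 104, 89.4 and 84.1 in Cre+ MPTP (log2 fold change in Cre- mice -1.03, SE 0.195, adjusted p = 0.0108). All 3 Cre- MPTP libraries were below every other library. Of the 8 endothelial markers, Itm2a and Tek also fell with MPTP in Cre- mice, against 0.956% of all genes. Under MPTP both were called higher in the Cre+ group. Itm2a was at 62.5 to 76.4 CPM in Cre- Saline, 6.39 to 18.3 in Cre- MPTP and 43.2 to 55.7 in Cre+ MPTP, while the summed level of the list was 384 to 398, 326 to 452 and 358 to 435 CPM. The endothelial markers are given beside Vtn without a claim that these cells make it. No markers of pericytes were among the lists, and the part of any cell type in the Vtn level was not tested. C1s1, the protease partner of C1r, was at 1.48 for MPTP in Cre- mice (SE 0.479, adjusted p = 0.157), not called by edgeR, whereas DESeq2 (adjusted p = 0.0377), limma voom (adjusted p = 0.000427) and edgeR without Cre- MPTP replicate 1 (adjusted p = 0.0191) called it. Without Cre- MPTP replicate 1, 9 of the 31 were called in Cre- mice, beside 9.38% of all genes. Without Cre- Saline replicate 3 only C3ar1 and C5ar1 were, beside 1.93% of all genes. On all libraries 3.18% of all genes were called there. None of the 9 membrane regulators, 9 genes of the classical and lectin start (C1s1 included), 2 terminal components or Cfp of the alternative pathway was called by edgeR on all libraries in any of the 5 comparisons. In Cre- mice DESeq2 also called C1rl, C1s1 and Colec12 of the classical and lectin start and the receptor Cd93, and limma voom called these with C2 and the membrane regulator Cd59a. Of all genes, DESeq2 called 5.87% there and limma voom 13.6%. In Cre+ mice none of the 31 was called by edgeR, with 7 at an unadjusted p under 0.05 (3.47% of all genes), 1 called by DESeq2 (0.429%) and 5 by limma voom (1.52%). Between genotypes under MPTP none was called, with 8 at an unadjusted p under 0.05 (19.0% of all genes), 3 called by DESeq2 (4.31%) and 7 by limma voom (6.32%).

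**Figure D4:**
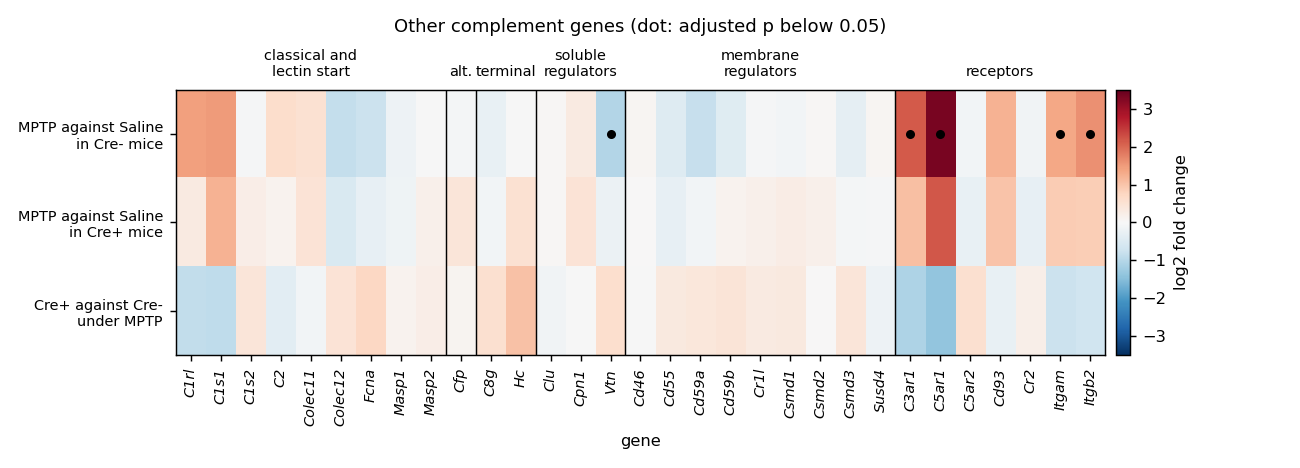
Fitted log2 fold change (color) of the 31 tested genes of the wider complement list, grouped by role along the x axis, in 3 comparisons, with a dot where the adjusted p was under 0.05. The 5 dots are C3ar1, C5ar1, Itgam and Itgb2 (higher) and Vtn (lower), all for MPTP in Cre- mice.

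The genes whose levels were most like those of the members across the 13 libraries are given as a description, since all libraries share the groups and the header numbers. The mean log2 CPM of the C1q chains was most like that of Spint1 (Pearson r 0.960), Tspo (0.943), B3gnt8 (0.943), Sh3tc1 (0.932) and Psmb9 (0.930). C4b was most like Hcls1 (0.977), Il4ra (0.976), Hif3a (0.966), Acp5 (0.966) and Mettl7a1 (0.965). No gene was on both lists.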

How the data were processed

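The authors processed paired reads of 150 bases with Trimmomatic 0.36 (trimming), STAR 2.5.2b (mapping to GRCm38) and featureCounts of Subread 1.5.2 (unique hits per gene). The strand setting of the counting is not given in the sources used here. The deposited values are raw gene counts, and depth limits genes with few of them. Symbols came from GENCODE M21 (48970 of 49315 genes).

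Counts were fitted in edgeR 4.0.16 (R 4.3.3) with TMM normalization on genes reaching 10 counts in 3 or more libraries, using the quasi-likelihood test with 1 term per group over 13 libraries. Each p was adjusted over all 19360 genes (Benjamini-Hochberg) and called under 0.05. A standard error is the log2 fold change divided by the square root of F. The authors used DESeq2. Here DESeq2 1.42.0 on all libraries or on the groups compared, limma 3.58.1 voom with quality weights per sample, edgeR restricted to the groups compared, other filters and size factors, a replicate block, C4a and C4b summed, and each library left out were alternatives. Removing a length trend and adding the header number as a term were chosen after seeing the data. Fits were tested on simulated data. Named genes are the 9 members, called genes of the wider list, and the 5 genes most like the C1q mean and C4b. C1s1, Csf1r and the markers named beside results were chosen after their values were seen. A gene of the wider list is not reported here. The members and lists were chosen with earlier results of these data known. Same-numbered replicates were separate animals, and those numbered 1 or 2 also shared the first digit of the header number.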

Additional observations from a re-analysis of the deposited data

Results flagged for a closer look

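In the Cre+ MPTP group, replicate 2 lay far below the other 3 libraries for all 3 C1q chains: C1qa was at 39.5 CPM, C1qb at 31.2 and C1qc at 26.2. The gap to the nearest library was 0.889, 0.855 and 0.939 of the group's range, past Dixon's critical ratio for 4 samples. The 3 chains move together, so these are not separate findings, and this was the only Cre+ MPTP library whose header number began with 6. C4a was at 2.25 CPM in Cre+ MPTP replicate 4, with a ratio of 0.836. Of the 9 members tested in this group 4 were flagged, where chance flags about 1 in 20, and the groups of 3 were not tested.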

How the results depend on the processing

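In Cre- mice, where 5 members were called for MPTP, leaving out 1 library gave 4 to 8, and C1ra, C3, C4b and Cfb were called in all 6 such fits. Those fits called 1.61 to 9.38% of all genes, against 3.18% on all libraries. In Cre+ mice, against 0, DESeq2 called 2 on all libraries and 2 on the groups compared, and limma voom 3. Their shares of all genes were 0.429, 1.73 and 1.52%, against 0%. Between genotypes under MPTP, against 4, edgeR on the groups compared called 0, the header number as a term gave 2, and leaving out 1 library gave 1 to 6. Shares of all genes were 0%, 1.46% and 0.212 to 9.51%, against 1.54%. In the interaction, against 0, DESeq2 called 2, limma voom 3 and no count filter 1, and leaving out 1 library gave 0 to 1. Shares of all genes there were 1.15%, 3.56%, 0.028% and 0 to 1.03%, against 0.0103%.

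Of the wider list, against 5 in Cre- mice, DESeq2 on all libraries called 9, limma voom 11 and edgeR on the groups compared 0, with 2 to 9 when 1 library was left out. Shares of all genes were 5.87%, 13.6%, 0.6% and 1.61 to 9.38%, against 3.18%. In Cre+ mice, against 0, DESeq2 called 1 on all libraries and 5 on the groups compared, and limma voom 5. Their shares of all genes were 0.429, 1.73 and 1.52%. Between genotypes under MPTP, against 0, DESeq2 called 3, limma voom 7 and the header number as a term 1, with 0 to 2 when 1 library was left out. Shares of all genes were 4.31%, 6.32%, 1.46% and 0.212 to 9.51%, against 1.54%. In the interaction limma voom called 2, and 3.56% of all genes. The cause of these shifts was not tested.

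The direction reversed only for values that were not called. With limma voom, the genotype difference under MPTP was 0.00225 for C1qb and 0.18 for C1qc, under saline 0.027 for C1qc and -0.0096 for Serping1, and the interaction was 0.021 for C1qb, 0.15 for C1qc and -0.064 for C4a. Over fits that left out 1 library, C4a ran from -0.17 to 0.25 for MPTP in Cre- mice. The genotype difference under MPTP ran from -0.80 to 0.013 for C1qb and from -0.73 to 0.17 for C1qc. Under saline it ran from -0.16 to 0.014 for C1qb, -0.18 to 0.24 for C4a, -0.035 to 0.32 for C4b, -0.055 to 0.42 for Cfb and -0.15 to 0.21 for Serping1. The interaction ran from -0.76 to 0.068 for C1qa, -0.71 to 0.11 for C1qb and -0.58 to 0.31 for C1qc. Of all 788 values of single members under the alternatives, 714 kept direction and side of the threshold, 29 became called, 24 lost the call and 21 reversed.

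Same-numbered replicates were separate animals, but replicate 1 had a 5 number and replicate 2 a 6 number in every group. The replicate number and the header number thus overlap in part. The correlation of the replicates' deviations from the group means ran from -0.125 to 0.184 over 12 pairs. With the replicate number as a block, 5 members were called for MPTP in Cre- mice and 0 between genotypes under MPTP. Of all genes, 2.21% and 0% were called in that fit.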
